A study of Mus musculus with 15 samples.

Results

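The tRNA fragments (tRFs) of alanine and cysteine tRNAs were examined in mouse sperm, as 4 entries of the deposited small RNA table: AlaAGC, AlaCGC and AlaTGC, the 3 alanine isoacceptors, and CysGCA, each named by the amino acid and the anticodon (as DNA letters) of its tRNA. They were taken by name from the 47 tRFs of the table. The study asked whether an obesity-inducing diet (OID) fed to fathers alters the small RNA load of their sperm and of the sperm of their sons, relative to a control diet (CO). F0 males of the C57BL/6NTac strain (C57BL/6 in the labels) ate CO or OID for 7 weeks before mating with CO-fed females, and their F1 sons, named CO or OID after the father's diet, all ate CO themselves. Purified caudal epididymal sperm gave libraries of RNAs of 30 to 45 nucleotides, 3 in the CO F0 group and 4 in each of the groups OID F0, CO F1 and OID F1. The table lists tRFs, tRNAs and miRNAs, so that the cell type was not checked against mRNA markers, and in such bulk samples fewer contributing cells and less RNA per cell cannot be told apart. Ages at sperm collection were not given in the sources used here. According to the methods, F1 pups were cross-fostered and pooled from several dams, so that an F1 library cannot be traced to 1 father. The labels name the libraries as separate samples and say no more about them, and the p-values below measure the spread between these samples, which may be technical.

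Transfer RNAs are cut in the anticodon loop under stress, by angiogenin among other nucleases, and the resulting 5′ and 3′ fragments persist as small RNAs. The 5′ fragments of alanine and cysteine tRNAs are known as tiRNAs that repress translation initiation in cell extracts. This activity has been tied to a run of guanines at the 5′ end, through which they form G-quadruplexes and bind the cold shock protein YB-1. Mature sperm are rich in tRFs, most of them 5′ fragments. The table gives reads by tRNA and does not say from which end of the tRNA a fragment came.

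The run of guanines is shown here because it is the feature by which these fragments are grouped. In RefSeq on GRCm38, 1 AlaAGC gene, n-TAagc16, could be read in full at chr13:21222586-21222657 on the plus strand. It was read from a window at the start of the gene Gm32420, and it lies outside the genes annotated in GENCODE M21. It is printed 5′ to 3′ beside the first 30 bases of 2 other tRNA genes, a ValCAC gene at chr13:23446142-23446214 and a ThrAGT gene at chr7:35234770-35234843, both on the minus strand. Capitals mark the guanines at the 5′ end and, in AlaAGC, the anticodon at positions 33 to 35.
AlaAGC: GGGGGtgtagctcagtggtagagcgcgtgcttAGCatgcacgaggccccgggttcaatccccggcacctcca
ValCAC: Gtttccgtagtgtagtggttatcacgttcg
ThrAGT: GGcgccgtggcttagttggttaaagcgcct
The AlaAGC gene opened with 5 guanines, and the 11 genes of 9 other tRFs that could be read in the same way opened with 1 or 2. AlaCGC, AlaTGC and CysGCA are described by name.

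RefSeq lists 90 genes for the 4 tRNAs on GRCm38. AlaAGC has 13, of 72 or 73 bases, and 9 of these lie on chromosome 13 between 21222586 and 23431484. AlaCGC has 9 genes, each of 72 bases, with 5 on the X chromosome between 136367721 and 136567936. AlaTGC has 11 genes, also of 72 bases, and 7 lie in the same stretch of the X chromosome, between 136357602 and 136590436. CysGCA has 57 genes of 70 to 72 bases, the most of any tRF in the table, of which 49 lie on chromosome 6 between 47978997 and 48363603. Set against GENCODE M21, none of the 90 genes lies in an exon of another gene. Introns hold 2 AlaAGC genes (4930557F10Rik), 2 AlaCGC genes (4930555B11Rik and the delta opioid receptor gene Oprd1), 1 AlaTGC gene (the ubiquitin ligase gene Trim7) and 7 CysGCA genes (Gm16630). Per the methods, reads shared between tRNAs were weighted by alignment score. The tRF values of the table came out as whole reads, and whether such weights were rounded or did not enter these values is not given in the sources used here, so that the split of reads among the 3 alanine tRFs is uncertain.

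The precision of the values rests on the tRF reads per library, which were recovered from the table and ranged from 17966 in CO F0 replicate 3 to 5363471 in OID F0 replicate 1. A second shallow library, CO F1 replicate 2, held 35677. The median OID library was deeper than the median CO library, by 4.30 times among fathers and 4.73 times among sons. Two-sided exact permutation tests of the difference of mean log2 depth, and not of these ratios of medians, gave p = 0.114 and 0.0857. CO F0 replicate 3 gave the fewest reads for every one of the 4 tRFs, with 41 for AlaAGC, 7 for AlaCGC, 6 for AlaTGC and 99 for CysGCA. A floor of 3 reads corresponds to a normalized value of 145 in that library, which is 0.0167% of its reads. In the deepest library AlaAGC and CysGCA reached 29286 and 53914 reads. Confidence intervals and floors reflect counting error alone, as the reads carry no molecular identifiers and may be copies of 1 molecule. Libraries of the same group differed by far more than counting error, with a chi-square per degree of freedom of 32.2 to 2585 between pairs over the tRFs.

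Alanine and cysteine tRFs were minor components of sperm tRFs in these males. Together the 4 tRFs made up 0.667% to 2.50% of the summed tRF values of a library. CysGCA had the highest mean normalized value of the 4, 5829 over the 15 libraries, and ranked 13th of the 47 tRFs. AlaAGC ranked 18th with a mean of 2809, AlaCGC 27th with 677 and AlaTGC 33rd with 318. These normalized values are not divided by length, and the tRNA genes differ by at most 3 bases. The order CysGCA, AlaAGC, AlaCGC, AlaTGC was kept in all but 1 library. AlaAGC exceeded AlaCGC in 15 of 15 libraries, by 2.67 to 6.21 times, and AlaCGC exceeded AlaTGC in 15 of 15, by 1.13 to 10.9 times. CysGCA was above AlaAGC in 14 libraries and at 0.590 times its value in OID F0 replicate 2. CysGCA, with the most genes, was the most abundant of the 4 on average, whereas AlaCGC, with the fewest, was above AlaTGC. Over the 46 tRFs with a RefSeq gene, the number of genes and the mean level had a Spearman rho of 0.504, which is given as a description across tRFs that share their libraries.

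The 4 tRFs differed in how evenly they were present. AlaTGC was the most variable, with a highest library 13.6 times its lowest, and its within-group standard deviation of 0.80 on the log2 scale was the 7th widest of 47. On the normalized values AlaAGC was among the most even tRFs of the table, with a 2.33-fold range. Its within-group standard deviation of 0.33 was the 46th from the widest. As a share of the reads AlaAGC ran from 0.228% to 0.707%, and the tRFs were not ranked by spread on that scale. CysGCA ranged over 4.76-fold and AlaCGC over 3.50-fold, with within-group standard deviations of 0.59 and 0.45, beside a median of 0.58 for all tRFs.

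**Figure D1:**
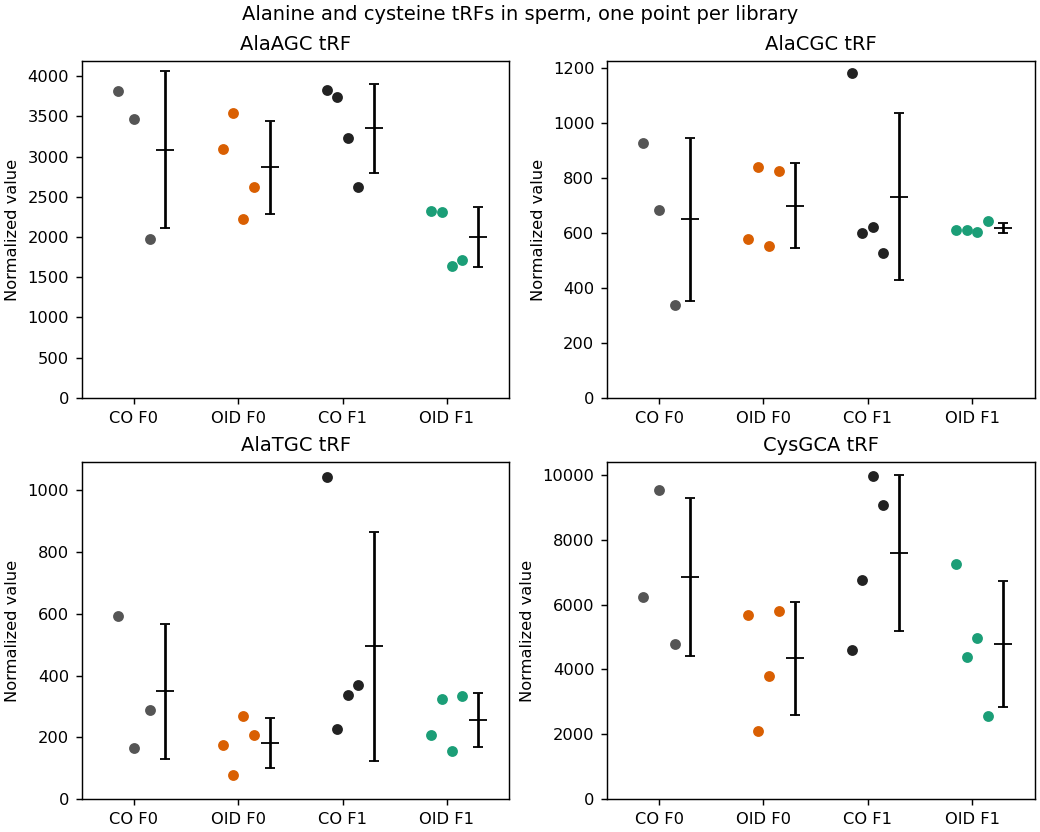
Normalized value (y axis, linear from 0) of AlaAGC, AlaCGC, AlaTGC and CysGCA in each library, with 1 point per library, and beside the points of each group the mean with its SD as bars (n = 3 in CO F0, n = 4 in the other groups). The 4 OID F1 points of AlaAGC lie below the 4 CO F1 points, and those of AlaCGC lie close together between 603 and 644.

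AlaAGC, the most abundant of the alanine tRFs, did not separate CO and OID fathers. Its normalized values were 3814, 3472 and 1976 in the CO F0 libraries and 3088, 3544, 2218 and 2615 in the OID F0 libraries. The groups overlapped, and the lowest value of the 7 was that of the shallow CO F0 replicate 3. The CO mean was 3087 ± 978 (SD, n = 3) and the OID mean 2866 ± 575 (SD, n = 4), a ratio of 0.928 (two-sided exact permutation test, p = 0.857). On the log2 scale the difference was -0.073 with a standard error of 0.33 (limma, adjusted p = 0.895), and its 95% interval ran from -0.84 to 0.70. The difference was -0.37 without the shallow CO F0 replicate 3, -0.37 with log2 depth as a covariate and -0.42 with the values rescaled without GlyGCC and GluCTC, the 2 dominant tRFs, and it turned to 0.11 without CO F0 replicate 1.

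In sons, AlaAGC was lower in OID and the 1 tRF of the 4 whose groups did not overlap. Its normalized values were 3827, 3735, 3227 and 2616 in CO F1 and 2326, 2312, 1643 and 1717 in OID F1. Every OID library was thus below every CO library. The means were 3351 ± 557 (SD, n = 4) and 1999 ± 370 (SD, n = 4), a ratio of 0.597 (two-sided exact permutation test, p = 0.0286, the smallest that 4 against 4 allow). Of the 47 tRFs, 8.51% were lower in OID without overlap in F1. The log2 fold change was -0.75 with a standard error of 0.26, and it did not pass limma's test after adjustment over 47 tRFs (adjusted p = 0.247, unadjusted p = 0.0157). Leaving out any 1 library gave log2 fold changes between -0.86 and -0.66. The adjusted p depended on the processing. On shares of the summed tRF values the log2 fold change was -0.90 (limma adjusted p = 0.0507), and with all 4 groups in 1 fit it was -0.75 (limma adjusted p = 0.388). As a share of the reads of a library, AlaAGC lay between 0.515% and 0.558% in the 4 CO libraries and between 0.235% and 0.350% in the 4 OID libraries. By counting error alone, which is narrower than the spread between libraries, the 95% Wilson interval of the OID library lay below that of the CO library in 16 of 16 F1 pairs. In F0 the OID interval was below in 7 of 12 pairs and above in 4.

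AlaCGC, the second alanine tRF, did not separate the groups in either generation. Its normalized values were 929, 682 and 338 in CO F0 and 577, 841, 555 and 826 in OID F0, with overlap and a CO range wider than the OID range. The means of 650 ± 297 (SD, n = 3) and 700 ± 155 (SD, n = 4) gave a ratio of 1.08 (exact permutation p = 0.686). In F1 the normalized values were 1184, 601, 620 and 527 in CO and 613, 612, 603 and 644 in OID. CO F1 replicate 1 stood above all other libraries and widened the CO F1 spread. On this scale the OID F1 values were nearly equal, with a coefficient of variation of 2.88% against 41.4% in CO F1. As shares of the reads the OID F1 libraries were less even, from 0.0826% to 0.0987%, beside 0.0897% to 0.171% in CO F1. The F1 means of 733 ± 303 (SD, n = 4) and 618 ± 17.8 (SD, n = 4) differed by less than the SD of CO F1 and by more than that of OID F1 (exact permutation p = 0.857). The log2 fold changes were 0.20 in F0, with a 95% interval from -0.73 to 1.13, and -0.17 in F1, with an interval from -0.82 to 0.48 (limma adjusted p = 0.827 and 0.683). The F0 direction changed to lower in OID, at -0.21, without the shallow CO F0 replicate 3, and also with the values rescaled without GlyGCC and GluCTC, at -0.15. The F1 direction changed to higher in OID, at 0.088, without CO F1 replicate 1.

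AlaTGC, the least abundant of the 4, had the lowest OID to CO ratios, with a wide spread. In F0 its normalized values were 592, 166 and 290 in CO and 176, 76.9, 270 and 206 in OID. The groups overlapped, and all 4 OID libraries lay below the CO mean. OID F0 replicate 2, the lowest, rested on 23 reads, and the CO value of 290 on 6. Means of 349 ± 219 (SD, n = 3) and 182 ± 80.3 (SD, n = 4) gave a ratio of 0.522 (exact permutation p = 0.286) and a log2 fold change of -0.88 with a standard error of 0.56 (limma adjusted p = 0.436). The log2 fold change moved with single libraries, from -0.40 without CO F0 replicate 1 and -0.51 without OID F0 replicate 2 to -1.32 without CO F0 replicate 2. It was -1.33 with log2 depth as a covariate and -1.22 with the values rescaled without GlyGCC and GluCTC, and none of these values passed the adjusted threshold.

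In F1 the AlaTGC values were 1043, 226, 338 and 371 in CO and 208, 323, 154 and 333 in OID. The OID libraries lay below the CO mean but within or below the CO range, and CO F1 replicate 1 stood far above the other 3 CO libraries. The means were 494 ± 371 (SD, n = 4) and 254 ± 87.5 (SD, n = 4), a ratio of 0.515 (exact permutation p = 0.143). The log2 fold change of -0.77, with a standard error of 0.46 (limma adjusted p = 0.376), was -0.33 without CO F1 replicate 1 and -1.06 without the shallow CO F1 replicate 2. With log2 depth as a covariate it was -1.66 (limma adjusted p = 0.0511). The counts themselves were precise for most libraries. The AlaTGC share of reads in CO F1 replicate 1 was 0.151% (95% Wilson interval 0.146% to 0.155%), and in the shallow CO F1 replicate 2, with 12 reads, it was 0.0336% (0.0192% to 0.0588%).

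CysGCA, the cysteine tRF, was lower on average in OID sperm in both generations, with overlap in each. The F0 normalized values were 6234, 9544 and 4770 in CO and 5685, 2091, 3797 and 5789 in OID. A pair of OID libraries lay below all CO libraries, and the other two within the CO range. Means of 6849 ± 2446 (SD, n = 3) and 4340 ± 1757 (SD, n = 4) gave a ratio of 0.634 (exact permutation p = 0.229) and a log2 fold change of -0.71 with a standard error of 0.44 (limma adjusted p = 0.436). The log2 fold change was -0.39 without OID F0 replicate 2, the lowest library for CysGCA as for AlaTGC, -0.44 without CO F0 replicate 2, the highest, and -0.94 without the shallow CO F0 replicate 3. It was -1.32 with log2 depth as a covariate and -1.06 with the values rescaled without GlyGCC and GluCTC, again short of the adjusted threshold.

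In F1, the CO libraries had CysGCA values of 4593, 6756, 9959 and 9063, and the OID libraries 7262, 4374, 4963 and 2555. OID F1 replicate 1 lay above 2 CO libraries, and CO F1 replicate 1 below 2 OID libraries. The means of 7593 ± 2412 (SD, n = 4) and 4788 ± 1942 (SD, n = 4) gave a ratio of 0.631 (exact permutation p = 0.171). The log2 fold change of -0.70 had a standard error of 0.37 (limma adjusted p = 0.370). It ranged from -0.43 without OID F1 replicate 4 to -0.93 without OID F1 replicate 1, and was -0.44 with log2 depth as a covariate. CO F1 replicate 1, the library highest in all 3 alanine tRFs, was thus the CO F1 library lowest in CysGCA. By counting error alone, the Wilson interval of the OID library was below that of the CO library in 12 of 16 F1 pairs and above it in 2.

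None of the 4 tRFs passed the adjusted threshold of 0.05 in F0 or in F1, and neither did any other of the 47 tRFs (limma, 0.00% called in each generation). At an unadjusted p under 0.05, 0 of the 4 passed in F0, beside 21.3% of all tRFs, and 1 of 4, AlaAGC, passed as lower in F1, where 10.6% of all tRFs passed as lower. The 4 log2 fold changes had a median of -0.39 in F0, with 3 of 4 below 0, and of -0.72 in F1, with 4 of 4 below 0. Over all tRFs the medians were 0.019 and 0.075, and 48.9% and 46.8% of the fold changes were below 0. Of 9 other tRFs whose 5′ fragments are widely studied (GlyGCC, GlyCCC, GluCTC, GluTTC, LysCTT, ValAAC, ValCAC, HisGTG and AspGTC), 0 passed the adjusted threshold in either generation. Their median log2 fold changes were 0.17 in F0 and 0.19 in F1, with 3 of 9 below 0 in each. In F1 those below 0 were AspGTC at -0.76, LysCTT at -0.64 and HisGTG at -0.45, in the range of the 4 tRFs. The rest of the list lay above 0, up to 0.41. At an unadjusted p under 0.05 (limma), 3 of the 9 passed in F0, 2 as higher and 1 as lower. In F1, 1 of the 9, LysCTT, passed as lower.

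With both generations in 1 model and generation as a term, CysGCA was lower in OID by a log2 fold change of -0.70 (standard error 0.29), AlaTGC by -0.82 (0.36) and AlaAGC by -0.44 (0.23). The value for AlaCGC was 0.00088 (0.25). None of the 4 passed adjustment, with limma adjusted p of 0.113 for CysGCA, 0.133 for AlaTGC, 0.194 for AlaAGC and 0.997 for AlaCGC, beside 10.6% of all tRFs that did. At an unadjusted p under 0.05, 2 of 4 passed as lower, CysGCA and AlaTGC, beside 12.8% of all tRFs. Relabelling OID and CO within each generation in all 2450 ways gave exact permutation p of 0.0310 for CysGCA, 0.0612 for AlaTGC, 0.0580 for AlaAGC and 0.949 for AlaCGC. AlaTGC passed the adjusted threshold when log2 depth was added as a covariate, at a log2 fold change of -1.51 (limma adjusted p = 0.0239), in a fit that called 13 of the 47 tRFs against 5 without the covariate. Within groups its level and log2 depth had a Pearson r of 0.588 and a Spearman rho of 0.518 over 15 libraries, neither past the threshold (permutation p = 0.0749 and 0.107, adjusted over 4 tRFs 0.300 and 0.429), and r was 0.575 without the 2 libraries of most extreme depth.

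**Figure D2:**
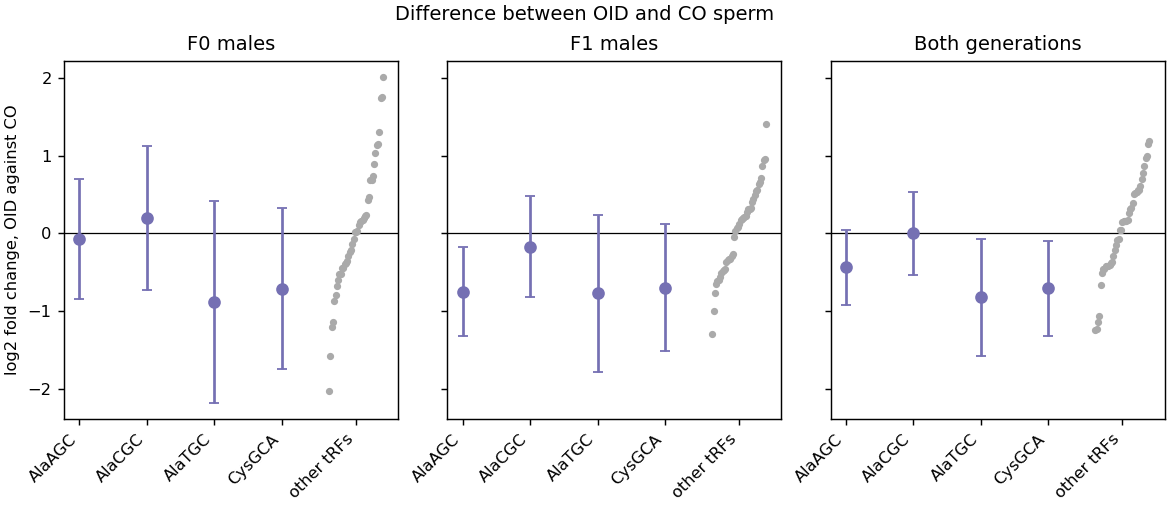
Log2 fold change of OID against CO (y axis) in F0 males, F1 males and both generations together, with purple points and 95% confidence intervals for AlaAGC, AlaCGC, AlaTGC and CysGCA, and grey points, sorted by value, for the 43 other tRFs. AlaAGC, AlaTGC and CysGCA lie between -0.77 and -0.70 in F1, and the other tRFs lie on both sides of 0 in every panel.

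The OID to CO difference itself was compared between fathers and sons by the interaction term. For AlaAGC it was -0.67 on the log2 scale, with a 95% interval from -1.63 to 0.28, and for AlaCGC -0.37, from -1.46 to 0.72. For AlaTGC and CysGCA the estimates were 0.11, from -1.44 to 1.65, and 0.0094, from -1.25 to 1.27. None passed the threshold (limma adjusted p from 0.666 to 0.988), beside 0.00% of all tRFs, so that the separation of AlaAGC in F1 was not shown to differ from its overlap in F0. Between generations, the 4 CO log2 fold changes of F1 against F0 were 0.16 for AlaAGC, 0.21 for AlaCGC, 0.44 for AlaTGC and 0.15 for CysGCA (limma adjusted p from 0.849 to 0.895). In the OID lineage they were -0.52, -0.15, 0.55 and 0.16 (limma adjusted p from 0.450 to 0.832), and all 4 OID F1 libraries of AlaAGC lay below the OID F0 mean (exact permutation p = 0.0857). In each of these comparisons 0.00% of all tRFs were called. They share their libraries with the comparisons of OID and CO, and generation cannot be told apart from own diet in the OID lineage or from age and collection date in either.

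Because the deposited scale differs between libraries, the alanine tRFs were also expressed as a share of the summed tRF values. In fathers the 3 alanine tRFs together made up 0.990%, 0.615% and 0.301% in CO and 0.679%, 0.454%, 0.579% and 0.323% in OID, with full overlap. In sons they made up 0.874%, 0.681%, 0.668% and 0.698% in CO and 0.425%, 0.491%, 0.344% and 0.413% in OID, and every OID library was below every CO library. The F1 means were 0.730% ± 0.0968 (SD, n = 4) and 0.418% ± 0.0603 (SD, n = 4), a difference of -0.312 percentage points (two-sided exact permutation test, p = 0.0286, adjusted over 6 share tests 0.171). AlaAGC made up 63.2% to 81.9% of this sum, so that its F1 separation is not a result apart from that of AlaAGC. In F0 the difference was -0.126 percentage points (exact permutation p = 0.571), and it turned to 0.0509 without CO F0 replicate 1. The CysGCA share in fathers averaged 1.02% ± 0.421 (SD, n = 3) under CO against 0.614% ± 0.335 (SD, n = 4) under OID. In sons it averaged 1.27% ± 0.522 (SD, n = 4) in the CO lineage against 0.686% ± 0.241 (SD, n = 4) in the OID lineage. The CysGCA groups overlapped in both generations (exact permutation p = 0.229 and 0.114).

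The make-up of the alanine tRFs within a library does not depend on its scaling. AlaAGC held most of it, from 63.2% in CO F1 replicate 1 to 81.9% in CO F1 replicate 2. AlaCGC held 13.0% to 25.1%, and AlaTGC 1.72% in OID F0 replicate 2 to 17.2% in CO F1 replicate 1. The AlaTGC share averaged 8.68% ± 4.20 (SD, n = 3) in CO fathers against 5.20% ± 2.95 (SD, n = 4) in OID fathers (exact permutation p = 0.229). CO sons averaged 10.2% ± 5.22 (SD, n = 4) against 8.83% ± 2.85 (SD, n = 4) in OID sons (exact permutation p = 0.743). The AlaAGC share averaged 74.2% in CO F1 and 69.3% in OID F1 and the AlaCGC share 15.6% and 21.8%, which are given without a test.

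**Figure D3:**
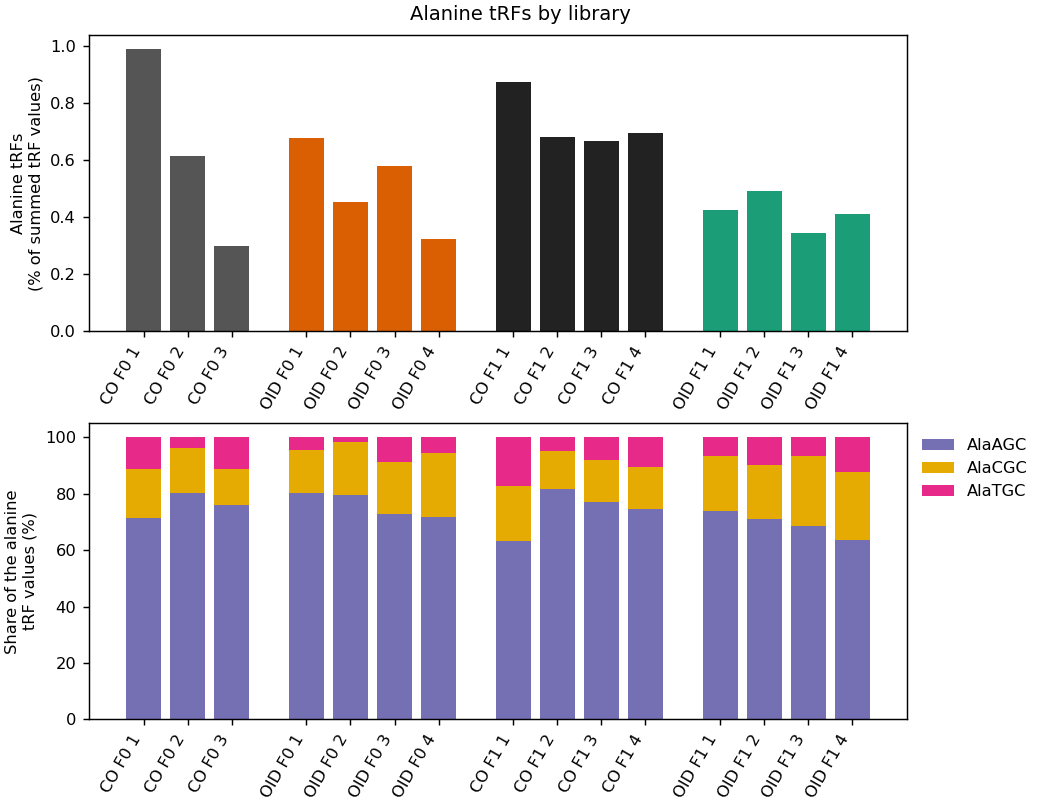
Upper panel, the 3 alanine tRFs together as a percentage of the summed tRF values, 1 bar per library from 0. Lower panel, the percentage of the alanine tRF values held by AlaAGC, AlaCGC and AlaTGC in the same libraries. The OID F1 bars of the upper panel, 0.344% to 0.491%, lie below the CO F1 bars, 0.668% to 0.874%, and AlaAGC is the largest part of every lower bar.

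The members moved together across libraries to a limited extent. On the log2 scale AlaAGC and AlaCGC had a Pearson r of 0.569 and a Spearman rho of 0.546 over the 15 libraries (permutation p = 0.0233 and 0.0367), of 6 pairs examined, with adjusted values of 0.140 and 0.220. Without the 2 libraries farthest from the median of AlaAGC, r was 0.711. The rho of the other 5 pairs lay between -0.075 and 0.307, with adjusted permutation p of 0.791 or more. As shares of the summed tRF values, which use 1 common divisor per library, 4 of the 6 pairs passed an adjusted p of 0.05 by Spearman rho, with rho of 0.579 to 0.796. Of these, AlaAGC with AlaTGC did not pass by Pearson r (r = 0.510, adjusted permutation p = 0.0778). As deviations from the group means, the rho of AlaAGC and AlaCGC was 0.707 (adjusted permutation p = 0.0551) and that of AlaTGC with AlaAGC -0.104.

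For each member, the 2 other tRFs with the most similar levels over the 15 libraries were found by Spearman rho on the log2 scale, as a description of libraries that share depth and scaling. AlaTGC was most like ThrCGT and AspGTC, with rho of 0.904 and 0.875, and of 0.957 and 0.889 on shares. These values were 0.857 and 0.839 within groups, and ThrCGT was low in reads as well, with 6 in CO F0 replicate 3. AlaAGC was most like ProCGG and HisGTG (0.654 and 0.593), AlaCGC like GluTTC and HisGTG (0.746 and 0.604), and CysGCA like TrpCCA and LeuCAG (0.554 and 0.543). The likeness of AlaCGC to GluTTC depended on the scale, at 0.154 on shares and 0.900 within groups. The ThrCGT and AspGTC log2 fold changes over both generations were -0.66 and -1.14, beside -0.82 for AlaTGC, with limma adjusted p of 0.194, 0.0506 and 0.133. Both tRFs were picked for likeness to AlaTGC over these same libraries, so that fold changes of like sign follow largely from the choice.

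**Figure D4:**
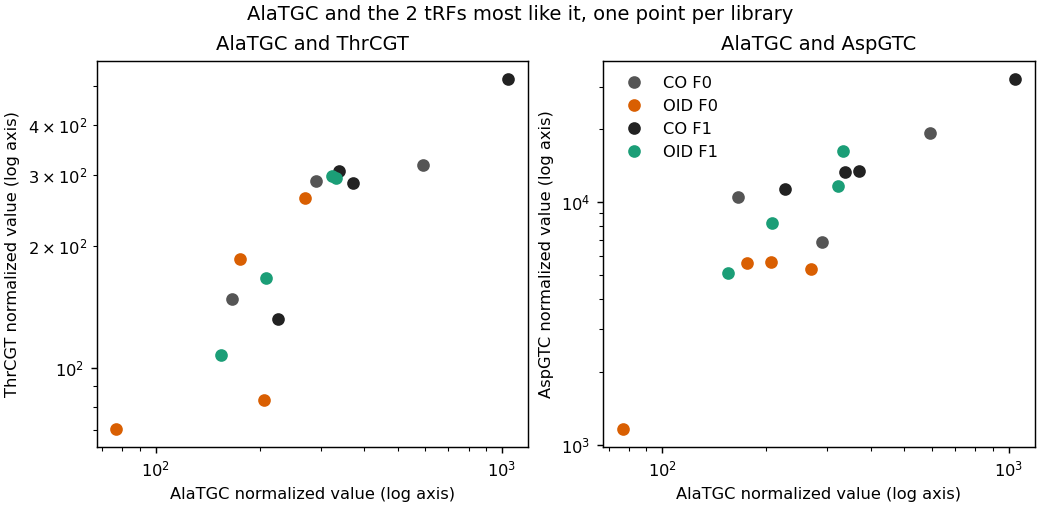
Normalized value of AlaTGC (x axis, log scale) against that of ThrCGT (left) and AspGTC (right) (y axes, log scale), with 1 point per library coloured by group. AlaTGC, ThrCGT and AspGTC were lowest in OID F0 replicate 2 and highest in CO F1 replicate 1, with rho of 0.904 and 0.875 over the 15 libraries.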

How the data were processed

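Small RNA-seq of sperm from 15 mouse samples was analysed, with groups and replicate numbers taken from the labels. Per the methods, the authors used Trimmomatic for trimming, GRCm38/mm10 as the reference and blastn for tRNA annotation, and gave shared reads a weight by alignment score. The submitters' processing notes name Bowtie2 2.3.4.1, DESeq2 and mm10. The deposited values are a normalized signal, which the methods call TPM, in 47 tRFs, 4 mature tRNA entries and 164 miRNAs. Each tRF value was found to be reads divided by 1 amount per library, plus 0.5. Values of all 705 tRF entries came out as whole reads to within 0.001, and the search recovered 100 of 100 simulated libraries. The miRNA and mature tRNA entries have another scale and were not used. Depth was 17966 to 5363471 tRF reads per library, and shares of reads carry 95% Wilson intervals.

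limma 3.58.1 in R 4.3.3 was fitted to log2 of the value + 1 over all 47 tRFs and tested on simulated data, with Benjamini-Hochberg adjustment and a threshold of 0.05. Fold changes on this scale understate those of low tRFs. Single values were compared by two-sided exact permutation tests on log2 values, or on percentages for shares (scipy 1.17.1), for which 3 against 4 samples cannot go below 0.0571 and 4 against 4 not below 0.0286. Correlations used 100000 resamples, within groups for deviations from group means. Alternatives were other pseudocounts, scalings, a filter on low values, a depth covariate, a depth minimum, all groups in 1 fit, the replicate number as a block and each library left out. Named tRFs are the 4 members, the 2 most similar to each by Spearman rho, and a list of 9 tRFs with studied 5′ fragments. The members and lists were chosen with earlier results of these data known. Sequences and gene positions come from RefSeq (GRCm38), and gene overlaps from GENCODE M21. Figures were drawn with matplotlib 3.10.9.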

Additional observations from a re-analysis of the deposited data

Results flagged for a closer look

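In 21 sets of values of 1 group of 4 libraries, the highest and lowest library were compared with the rest by Dixon's ratio of the gap to the nearest library and the range of the group. On the scales used, the combined alanine share of CO F1 was the 1 set past the 95% critical value, where CO F1 replicate 1, at 0.874% against 0.668% to 0.698% in the other 3 libraries, had a ratio of 0.855. About 1 in 20 groups passes this value by chance, here 1.05 of 21. The ratio depends on the scale. On linear normalized values AlaCGC in CO F1 stood out to a like extent, with CO F1 replicate 1 at 1184 against 527, 601 and 620. Without this library the OID F1 to CO F1 difference of the alanine share was -0.264 percentage points, with every OID library still lower (exact permutation p = 0.0571, the smallest possible with 3 against 4).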

How the results depend on the processing

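Of 699 alternative values, 609 kept their direction and side of the threshold or moved within the spread. The F0 count of called tRFs, 0, was 6 with all 4 groups in 1 fit and 0 to 2 with each library left out (2 without OID F0 replicate 3, 1 without CO F0 replicate 1). The F1 count, 0, ranged from 0 to 1 (1 without CO F1 replicate 1). Over both generations the count of 5 became 8 with a pseudocount of 10, 2 on shares, 3 rescaled without GlyGCC and GluCTC, 13 with log2 depth as a covariate and 3 with limma-voom on recovered reads, which was added after the data were seen; it was 2 to 10 leaving out 1 library (2 without CO F0 replicate 2 or 3, 3 without OID F0 replicate 4, 10 without CO F1 replicate 2, 9 without OID F1 replicate 4). The OID count of F1 against F0 ranged from 0 to 2 (2 without OID F0 replicate 3).

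With the replicate number as a block, the count over both generations was 2 and that of F1 against F0 in CO 1, and no call on the 4 tRFs changed. Same-numbered libraries had correlations of deviations from -0.479 to 0.530 (mean 0.0115, 21 pairs), so the numbers were not read as pairing.

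AlaCGC in F0 reversed to -0.15 rescaled, -0.072 with depth, -0.21 with at least 100000 reads and -0.15 by limma-voom, and over both generations to -0.00037 with a pseudocount of 10, -0.14 on shares, -0.12 rescaled, -0.31 with depth, -0.23 with at least 100000 reads and -0.27 by limma-voom. Leaving out 1 library gave -0.37 to 0.11 for AlaAGC in F0, and for AlaCGC -0.21 to 0.52 in F0, -0.30 to 0.088 in F1 and -0.19 to 0.14 over both. AlaTGC over both generations passed with depth as a covariate (-1.51). The interactions of AlaCGC (0.060 rescaled; -0.68 to 0.045 leaving out 1 library), AlaTGC (-0.15 with at least 100000 reads, -0.041 by limma-voom; -0.37 to 0.55) and CysGCA (-0.0067 on shares; -0.30 to 0.28) changed sign. So did F1 against F0 in CO for AlaAGC (-0.038 rescaled, -0.19 with at least 100000 reads; -0.13 to 0.34), AlaCGC (-0.14 with depth, -0.13 with at least 100000 reads; -0.20 to 0.53), AlaTGC (-0.0033 to 0.92) and CysGCA (-0.050 rescaled, -0.049 with at least 100000 reads; -0.084 to 0.42), and in OID for AlaCGC (0.078 rescaled, 0.033 with depth) and CysGCA (-0.16 to 0.43). None of these sign changes was past the threshold on either side.

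The alanine share difference ranged from -0.294 to 0.0509 points in F0 and from -0.336 to -0.264 in F1, and was -0.328 with at least 100000 reads; 3 against 4 cannot pass 0.05. The AlaTGC share of the alanine values in F1 ranged from -3.12 to 0.976 points. On shares the rho was 0.757 for AlaAGC with AlaCGC, 0.579 with AlaTGC and 0.639 with CysGCA, and 0.796 and 0.489 for AlaCGC with AlaTGC and CysGCA. As deviations it was -0.104 for AlaAGC and -0.221 for CysGCA with AlaTGC. The cause of these changes was not tested. The planned edgeR fit was not run, because the miRNA and mature tRNA entries did not give whole reads with the amount of the tRFs. Depth limits AlaCGC and AlaTGC most, at 7 and 6 reads in CO F0 replicate 3.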
